A study of Mus musculus with 4 samples.

Results

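Ad Ia is 1 of 5 labels that the authors gave to adipocyte nuclei of mouse epigonadal white fat, the depot beside the gonads. Its members were taken from the deposited nucleus table as the rows that belong to the epigonadal library and carry this label. They were 106 of the 1564 labelled epigonadal nuclei (6.78%), of 5043 barcodes in that library and of 1929 labelled nuclei in both 4-month libraries. The other epigonadal labels were Ad Ib with 152 nuclei, Ad IIa with 590, Ad IIb with 58 and Ad IIc with 658. The remaining 3479 barcodes carried no label and are called other barcodes.

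The study set fat-associated nuclei of the thymus beside nuclei of epigonadal fat, and each group was 1 library. The epigonadal library came from WT, naive male mice of 4 months, and the thymic library set beside it at the end came from 6 pooled thymi of males of the same age. C57/BL6 mice on standard chow are named for the thymic pools. For the epigonadal library, the sources used here do not give the strain, the diet or how many animals went into it. The labels describe digestion, collection of the floating layer and isolation of nuclei in terms of the thymus. Nuclei were profiled with a droplet assay that counts RNA molecules by unique molecular identifier (UMI).

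White adipocytes store triglyceride in a single large lipid droplet and release fatty acids from it when hormones call for fuel. Growth hormone acts on them through its receptor and the kinase Jak2, and restrains lipid storage, while insulin acts through its own receptor and the Irs adapters and favours storage. A nucleus holds unspliced and retained RNA rather than the full messenger pool. Whether the barcodes of each label hold nuclear RNA alone was not tested. RNAs that stay in the nucleus differed between the labels, as given below.

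The 6 genes given as markers of this label are Fam13a and 5 others: Ghr, the growth hormone receptor, Slc1a3, a glutamate and aspartate transporter, Tshr, the thyrotropin receptor, Pnpla3, a lipid droplet acyl hydrolase, and Trhde, an ectoenzyme that degrades thyrotropin-releasing hormone. RefSeq (GRCm38.p6) gave a promoter for 5 of the 6, all but Tshr, and gave Ghr a second start, at chr15:3581843-3582092, whose 250 bases hold 1 CCAAT, 1 TATAAA and 0 GGGCGG matches and are not shown. The 250 bases before the start are shown for the 3 markers with the most UMIs in Ad Ia. Capitals mark matches, on either strand, to CCAAT or GGGCGG, and in Slc1a3 also to TATAAA. Ghr lies at chr15:3583353-3583602, Slc1a3 at chr15:8710808-8711057 and Fam13a at chr6:59024503-59024752, all on the minus strand and written 5′ to 3′.
Ghr: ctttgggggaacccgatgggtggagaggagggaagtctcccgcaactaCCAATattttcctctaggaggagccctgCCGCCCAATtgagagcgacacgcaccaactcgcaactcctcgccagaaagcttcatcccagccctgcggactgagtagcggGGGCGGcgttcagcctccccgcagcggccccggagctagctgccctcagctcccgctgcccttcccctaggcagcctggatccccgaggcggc
Slc1a3: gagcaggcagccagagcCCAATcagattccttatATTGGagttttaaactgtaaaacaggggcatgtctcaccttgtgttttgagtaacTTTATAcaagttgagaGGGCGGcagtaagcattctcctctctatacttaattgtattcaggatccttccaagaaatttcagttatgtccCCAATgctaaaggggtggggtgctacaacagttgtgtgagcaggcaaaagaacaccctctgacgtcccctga
Fam13a: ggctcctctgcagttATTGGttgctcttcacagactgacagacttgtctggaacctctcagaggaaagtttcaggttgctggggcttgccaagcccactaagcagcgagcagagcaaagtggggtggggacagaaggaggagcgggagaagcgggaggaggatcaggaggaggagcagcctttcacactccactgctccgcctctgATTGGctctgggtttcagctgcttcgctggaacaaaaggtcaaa
The Ghr window shown held 2 CCAAT and 2 GGGCGG matches, of which 1 pair overlaps in the run CCGCCCAAT. Slc1a3 held 3 CCAAT matches, 1 TATAAA and 1 GGGCGG, and Fam13a held 2 CCAAT matches. Of the markers not shown, Pnpla3 held 1 CCAAT and 2 GGGCGG matches, and Trhde held 0 CCAAT, 0 TATAAA and 0 GGGCGG. Of 32851 promoters of the same length, 33.8% held CCAAT, 32.7% GGGCGG and 12.4% TATAAA. A match describes letters and was not tested as a site.

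Depth was modest. The 106 Ad Ia nuclei had 500 to 5209 UMIs each, with a median of 1075 and a median of 664 detected genes. Median UMIs were 673 in Ad Ib, 1915.5 in Ad IIa, 2311.5 in Ad IIb, 714 in Ad IIc and 794 in the other barcodes. The median mitochondrial share was 3.84% of UMIs in Ad Ia, against 5.38% in Ad Ib and 2.84% to 6.06% over the other 3 labels. Nuclear-encoded UMIs summed to 143596 over the Ad Ia nuclei and to 120252 over those of Ad Ib. The sums for Ad IIa, Ad IIb and Ad IIc were 1237126, 140743 and 516172. Every one of the 106 was classed as a singlet by the authors, and 3 of their barcodes also occurred in the thymic matrix, of 147 barcodes that the matrices share and 0 that were labelled in both.

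Levels below are UMIs of a gene summed over the nuclei of a label, per 1000000 nuclear-encoded UMIs of that label (CPM). Ratios are log2 with 0.5 UMI added to each sum, and their 95% intervals were computed exactly, from the binomial distribution of a gene's UMIs between the 2 sides. The intervals cover counting error only. With 1 library there was no replicate and no test. The authors drew the labels from the same counts, so every ratio between labels describes the annotation.

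**Figure D1:**
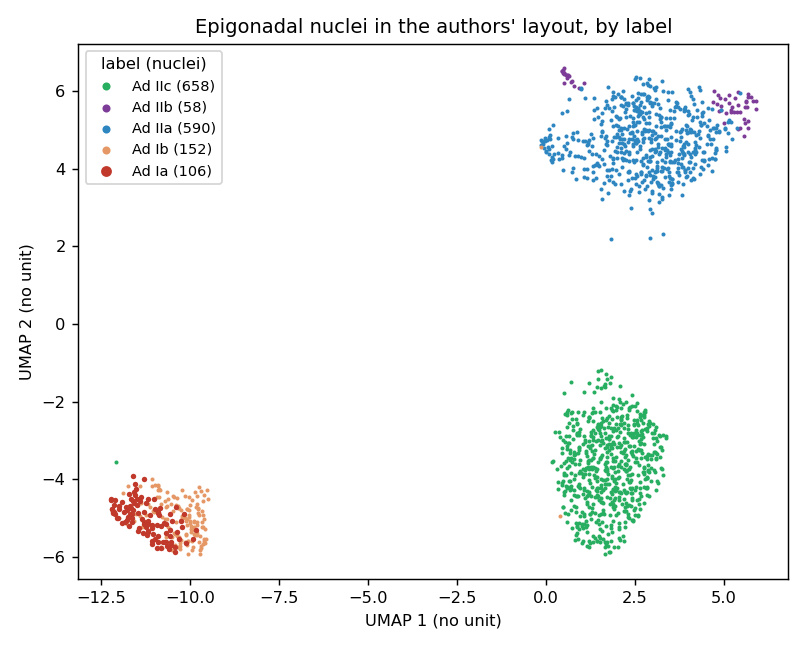
Each point is 1 labelled epigonadal nucleus, placed by the authors' deposited UMAP coordinates (2 axes without unit) and coloured by label. The 106 Ad Ia nuclei lie beside most of the 152 Ad Ib nuclei and apart from most nuclei of the other 3 labels. Exceptions are Ad Ib nuclei at (−0.14, 4.57) and (0.40, −4.94), among Ad II nuclei, and an Ad IIc nucleus at (−12.1, −3.56), near Ad Ia.

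In the authors' clustering Ad Ia was sub-cluster 2_1 and Ad Ib sub-cluster 2_0 of 1 parent cluster. The 2 labels held 258 epigonadal nuclei, and the size of the parent cluster itself was not counted. All 258 stood in 1 cluster at the deposited resolution of 0.4, and 257 of them at 0.8. The layout of nuclei by label shows the same neighbourhood. Ad Ib is therefore the label most like Ad Ia, and the comparison with it comes first.

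All 6 markers were higher in Ad Ia than in each of the other 4 labels and in the other barcodes. Ghr had 18127 CPM (95% interval 17437 to 18837) in Ad Ia, 8174 (7671 to 8702) in Ad Ib, 632 in both Ad IIa and Ad IIb, 1098 in Ad IIc and 1315 in the other barcodes. The log2 ratio of Ad Ia over Ad Ib was 1.15 (1.04 to 1.26), or 2.22-fold. Against Ad IIc the Ghr ratio was 16.5-fold and against Ad IIa 28.7-fold. Ad Ia and Ad Ib together thus stood well apart from the other labels, and the step between them was smaller.

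Slc1a3 was the marker that separated Ad Ia least from Ad Ib. Its level was 7619 CPM in Ad Ia and 5455 in Ad Ib, with 100 in Ad IIa, 42.6 in Ad IIb, 302 in Ad IIc and 553 in the other barcodes, and the log2 ratio over Ad Ib was 0.48 (0.34 to 0.62). Trhde separated them most, with 453 CPM in Ad Ia, 158 in Ad Ib and 9.70 to 17.4 in the other 3 labels, a log2 ratio of 1.49 (0.76 to 2.34). The remaining 3 lay between. Fam13a had 2681 CPM in Ad Ia and 1189 in Ad Ib (log2 1.17, 0.89 to 1.46), and 49.7 to 323 in the other 3 labels. Tshr had 1247 and 565 CPM (1.13, 0.73 to 1.57), and 28.4 to 87.2 elsewhere among the labels. For Pnpla3 the levels were 947 and 374 CPM (1.33, 0.84 to 1.86), and 7.11 to 85.2 in the other 3.

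**Figure D2:**
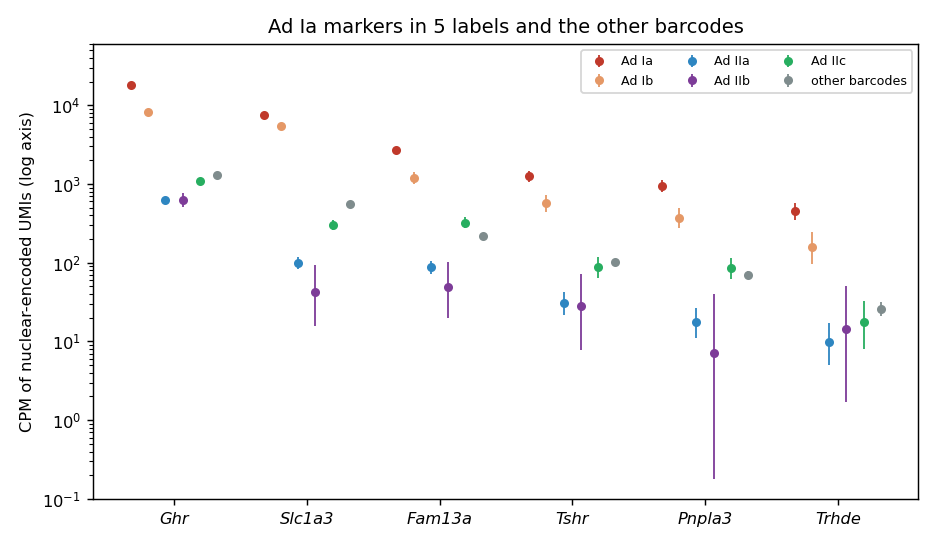
CPM (log axis) of the 6 markers in the 5 labels and the other barcodes, with exact 95% Poisson intervals as bars. Ad Ia is highest for each marker, and Ad Ib lies between it and the remaining labels.

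Single nuclei of 1 library are not replicates, and Ghr is a marker of the label, so its levels per nucleus are a description. Ghr ranged from 3273 to 50909 CPM over single Ad Ia nuclei, with a median of 16436 and 0 of 106 nuclei without a Ghr UMI. In Ad Ib the median was 8173 and 6 of 152 nuclei had none. In Ad IIa, whose nuclei were deeper, the median was 451 and 237 of 590 had none. The ranges of Ad Ia and Ad Ib overlap, since Ad Ib reached 25974 CPM, and the lower quartile of Ad Ia (12037) lay below the upper quartile of Ad Ib (12392).

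Shares of nuclei with at least 1 UMI were compared after every nucleus was thinned to 500 UMIs, which left out no nucleus. Ghr was found in 100% of thinned Ad Ia nuclei, 92.8% of Ad Ib, 25.9% of Ad IIa, 29.3% of Ad IIb, 42.6% of Ad IIc and 33.9% of the other barcodes. Unthinned shares were 100%, 96.1%, 59.8%, 67.2%, 55.6% and 49.8% in the same order. As a description of nuclei that the label already sorts, and with intervals for counting error within 1 library only, 4 or more of the 6 markers per thinned nucleus were found in 50 Ad Ia nuclei (47.2%, Clopper-Pearson 95% interval 37.4 to 57.1), 27 Ad Ib nuclei (17.8%, 12.04 to 24.8) and 0 of the other 3 labels. With all UMIs kept the numbers were 79 of 106 (74.5%), 48 of 152 (31.6%) and, in the other 3 labels, 6 of 590, 0 of 58 and 7 of 658.

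**Figure D3:**
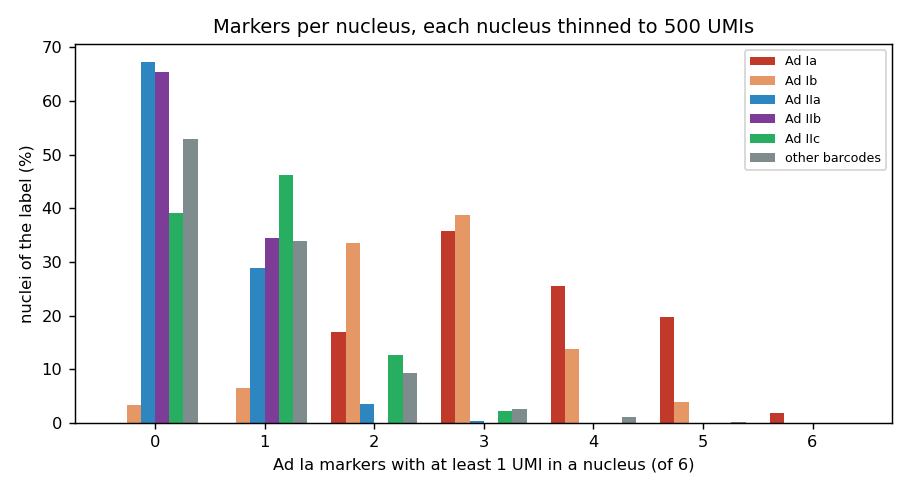
Percent of nuclei of each label (bars) by the number of the 6 markers with at least 1 UMI, after thinning each nucleus to 500 UMIs. Ad Ia nuclei hold 2 to 6 markers, and most nuclei of Ad IIa, Ad IIb and Ad IIc hold 0 or 1.

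Over all genes with at least 20 UMIs in Ad Ia and Ad Ib together (2555 genes), 204 were at least 2-fold higher in Ad Ia (7.98%) and 161 at least 2-fold lower (6.3%). The split moved with the scaling, to 171 and 208 with edgeR TMM factors and to 149 and 211 when Malat1, Gm42418 and AY036118 were left out of the totals. The median log2 ratio of all 2555 genes was 0.11. Of the markers, 5 of 6 were at least 2-fold higher and none lower, with a median of 1.16. Some of these stood close to the 2-fold limit. Without the 5 deepest nuclei of each label Ghr was at 0.98, Fam13a at 0.89 and the median at 0.99. After the immune-scaled subtraction described below Ghr was at 0.98, Tshr at 0.97 and the median at 0.99. The 6 were given as the markers of the label, so their ratios are a description of it.

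The profile of the other barcodes was also subtracted from each label, at a share set by marker RNA of cells that are not adipocytes. The share was 47.5% in Ad Ia and 55.2% in Ad Ib from immune markers, and 2.34% and 10.6% from erythroid markers. The immune markers were those of macrophages, T cells and B cells, pooled. In Ad Ia and the other barcodes these had 655 and 1514, 195 and 801, and 425 and 366 CPM, in that order. B-cell markers, mostly Bank1, were thus higher in Ad Ia than in the profile subtracted. The immune and erythroid shares lie far apart. The other barcodes had a median of 794 UMIs, beside 673 in Ad Ib, and 120 of them had 4 or more of the 6 markers. Their profile can thus hold RNA of cells, so neither share is an estimate of free RNA. The true share of free RNA was not tested. The immune-scaled subtraction left 7 of the 99 named genes with no UMI in either label, so that they had no ratio: Actb, Cfd, Eef1a1, Fabp4, Hba-a1, Hba-a2 and Ppia. It left 4 with none in Ad Ib (Adipoq, Cebpa, Lgals12 and Pnpla2) and 9 with none in Ad Ia (Apoc1, Camk1d, Dach1, Etfb, Fbxl7, Flt1, Oaz1, Selenow and St6galnac3). After the erythroid-scaled subtraction Hba-a1 had none in Ad Ia, and the other 98 had UMIs in both labels. A ratio with no UMI on 1 side depends on the 0.5 UMI added and is not printed for these genes, but it enters list medians and counts.

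Of 22 listed receptors for hormones and growth factors, 18 had enough UMIs; 6 of these were at least 2-fold higher in Ad Ia than in Ad Ib and 0 lower, with a median of 0.76 beside 0.11 for all genes. Of all 2555 genes, 7.98% were at least 2-fold higher and 6.3% lower, and these shares stand beside every later list count against Ad Ib. Intervals lay above 0 for 9 of the 18 receptors and included 0 for the other 9. The markers Ghr and Tshr are among the 6, and without them 4 of 16 were at least 2-fold higher, 0 lower, with a median of 0.73. Bmpr1a, a receptor for bone morphogenetic proteins, had 285 CPM in Ad Ia and 83.2 in Ad Ib, with 8.08 in Ad IIa, 0 UMIs in Ad IIb and 56.2 in Ad IIc, a log2 ratio of 1.73 (0.76 to 2.94) over Ad Ib. It was 0.50 in the thinned counts. Acvr1c, the activin-type receptor ALK7 that restrains lipolysis, had 1045, 407, 42.8, 28.4 and 205 CPM, a ratio of 1.35 (0.88 to 1.85). Members at the lower end were Prlr, the prolactin receptor, at −0.71 (−1.88 to 0.38), and Nr3c1, the glucocorticoid receptor, at −0.48 (−1.12 to 0.15), whose intervals include 0.

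Medians of the same receptor list were higher against the other labels, with Ghr and Tshr counted. Against Ad IIc, 15 of 19 receptors with enough UMIs were at least 2-fold higher and 0 lower, with a median log2 of 2.34, where 33.6% of all 4895 genes were higher and 31.7% lower. Against Ad IIa, 10 of 18 were higher and 2 lower with a median of 2.70, where 15.5% of 7805 genes were higher and 24.7% lower. Against Ad IIb, 11 of 18 were higher and 2 lower, where 19.3% of 2876 genes were higher and 24.6% lower. Without these 2 markers the medians were 2.14 against Ad IIc, 1.49 against Ad IIa and 1.05 against Ad IIb.

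The growth hormone, IGF and insulin list, which shares Ghr, Igf1r and Insr with the receptor list, had 14 of 20 members with enough UMIs, 3 at least 2-fold higher and 0 lower, and a median of 0.58. The marker Ghr is 1 of the 3, and without it 2 of 13 were at least 2-fold higher, with a median of 0.48. Irs1, the adapter that couples the insulin and IGF receptors to PI3 kinase, had 543 CPM in Ad Ia and 175 in Ad Ib, with 25.9 in Ad IIa, 14.2 in Ad IIb and 81.4 in Ad IIc. Its log2 ratio over Ad Ib was 1.61 (0.93 to 2.41), from 78 and 21 UMIs. Igf1r, the IGF1 receptor, had 174 CPM in Ad Ia and 216 in Ad Ib, beside 465 in Ad IIa (Ad Ia over Ad Ib −0.31, −1.16 to 0.54). Akt2, a kinase of the insulin pathway, stood at −0.00 (−1.06 to 1.10). Sik2, a salt-inducible kinase that is abundant in adipocytes, was found by the ranking over all genes and had 2368 and 1073 CPM (1.14, 0.85 to 1.45).

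**Figure D4:**
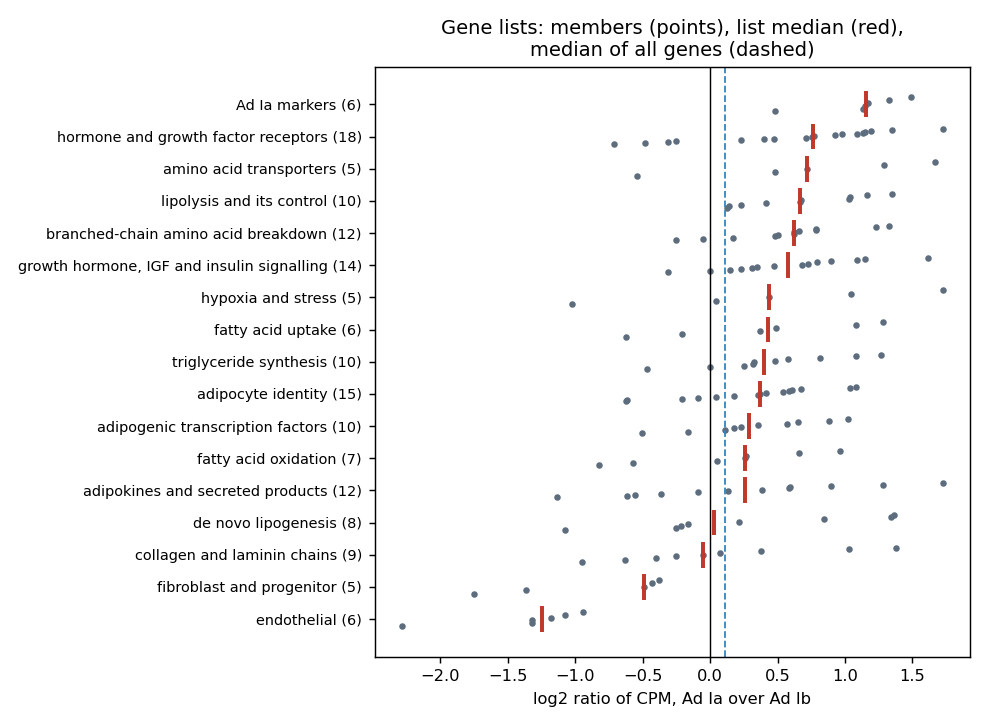
Log2 ratio of CPM, Ad Ia over Ad Ib, for members of 17 lists with at least 20 UMIs over both labels (points, number in brackets), with the list median in red and the median of all genes dashed. Lists run from the markers (1.16) at the top to endothelial genes (−1.25) at the bottom.

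The de novo lipogenesis list had 8 of 15 members with enough UMIs, 2 at least 2-fold higher and 1 lower, and a median of 0.03 that lies below the 0.11 of all genes. The 2 higher genes were Acaca, the acetyl-CoA carboxylase that commits acetyl-CoA to fatty acid synthesis, and Mlxipl, the glucose-responsive transcription factor ChREBP. Acaca had 1316 CPM in Ad Ia and 516 in Ad Ib, with 157 in Ad IIa, 85.3 in Ad IIb and 455 in Ad IIc (1.34, 0.93 to 1.79). Mlxipl had 306 and 116 CPM, and 7.11 to 31.0 in the other 3 labels (1.36, 0.50 to 2.38). The lowest members were Srebf1, the sterol-regulated activator of the same enzymes, with 69.6 and 150 CPM (−1.07, −2.38 to 0.09), and Thrsp, a lipogenic nuclear protein, with 376 and 449 CPM (−0.26, −0.83 to 0.32). Both intervals include 0, and of the 8 genes 3 had an interval above 0 and 0 below. Among nuclei with at least 1000 UMIs (55 Ad Ia and 24 Ad Ib) the list median was 1.21, with 6 members, and without the 5 deepest nuclei of each label it was −0.28.

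Triglyceride synthesis had 10 of 12 members with enough UMIs, 2 at least 2-fold higher and 0 lower, with a median of 0.40. Lpin1, a phosphatidate phosphatase, had 669 CPM in Ad Ia and 274 in Ad Ib, with 83.3 in Ad IIa, 35.5 in Ad IIb and 401 in Ad IIc (1.27, 0.70 to 1.90). Gpat3, a glycerol-phosphate acyltransferase, had 181 and 83.2 CPM (1.08, 0.02 to 2.34), but −0.015 among nuclei with at least 1000 UMIs. Agpat2, the next acyltransferase, stood at −0.00 (−1.33 to 1.38) and Gpd1, which supplies glycerol phosphate, at −0.47 (−1.72 to 0.74).

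The 10 members of the lipolysis list with enough UMIs, of 19, all had a ratio above 0 with the scaling used, 4 of them at least 2-fold, and their median was 0.67. Of all 2555 genes, 1441 had a ratio above 0 and 7.98% were at least 2-fold higher. Intervals lay above 0 for 6 of the 10 and included 0 for the other 4. The list median was 1.42 among nuclei with at least 1000 UMIs, and 0.52 without the 5 deepest nuclei of each label. Adrb3, the beta-3 adrenergic receptor through which catecholamines start lipolysis, had 696 CPM in Ad Ia and 308 in Ad Ib, with 37.2 in Ad IIa, 21.3 in Ad IIb and 221 in Ad IIc (1.17, 0.62 to 1.76). Acvr1c, given above, was the highest member. Pnpla2, the lipase ATGL, had 334 and 208 CPM (0.67, −0.04 to 1.44), with no UMI left in Ad Ib by the immune-scaled subtraction, and Lipe, hormone-sensitive lipase, had 989 and 740 CPM (0.42, 0.03 to 0.82). At the low end were Mgll, monoglyceride lipase (0.12, −0.16 to 0.41), and Aqp7, the glycerol channel (0.14, −1.21 to 1.59).

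Fatty acid uptake genes had 6 of 11 members with enough UMIs, 2 at least 2-fold higher and 0 lower, and a median of 0.43. Fabp4, given below, was the lowest member at −0.62. The whole list summed to 10940 CPM in Ad Ia and 12399 in Ad Ib (log2 −0.18, −0.28 to −0.08). The median was 1.03 over the 5 genes left by the immune-scaled subtraction, which emptied Fabp4 in both labels. Acsl1, which activates fatty acids with coenzyme A, had 1469 CPM in Ad Ia and 690 in Ad Ib, with 133 in Ad IIa, 85.3 in Ad IIb and 610 in Ad IIc (1.08, 0.72 to 1.47). Angptl4, a secreted inhibitor of lipoprotein lipase, had 209 and 83.2 CPM (1.28, 0.26 to 2.53). Cd36, the fatty acid transporter, had 1476 and 1705 CPM (−0.21, −0.49 to 0.08), and was at 6125 in Ad IIa.

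Genes that burn fatty acids gave no step of 2-fold in either direction among 7 of 14 with enough UMIs, and their median was 0.26. Ppara, the nuclear receptor that drives fatty acid oxidation, had 362 CPM in Ad Ia and 183 in Ad Ib, with 1.62 in Ad IIa, 0 UMIs in Ad IIb and 7.75 in Ad IIc (0.97, 0.24 to 1.78). Its coactivator Ppargc1b had 174 and 108 CPM (0.66, −0.33 to 1.78). The mitochondrial enzymes Acadm (−0.82, −1.93 to 0.20) and Hadhb (−0.57, −1.62 to 0.44) were the lowest. In the thermogenic list 2 of 13 genes had enough UMIs, so no median is given. They were the potassium channel gene Kcnk3 (1.08, −0.10 to 2.52) and the transcription factor Prdm16 (−0.26, −1.68 to 1.17).

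Branched-chain amino acid breakdown, a pathway of differentiated adipocytes, had 12 of 20 members with enough UMIs, 2 at least 2-fold higher, 0 lower and a median of 0.62. The interval lay above 0 for 1 of the 12 and included 0 for the other 11. Bckdhb, a subunit of the branched-chain keto acid dehydrogenase, had 669 CPM in Ad Ia and 283 in Ad Ib, with 44.5 in Ad IIa, 56.8 in Ad IIb and 101 in Ad IIc (1.23, 0.66 to 1.85). Auh, an enzyme of leucine breakdown, rested on 16 and 5 UMIs (1.33, −0.09 to 3.23), and stood at −0.22 among nuclei with at least 1000 UMIs. Aldh6a1 (−0.26, −1.12 to 0.60) and Mccc2 (−0.06, −1.22 to 1.14) were the lowest. Amino acid transporters had 5 of 15 members with enough UMIs, among them the marker Slc1a3. Of the other 4, 2 were at least 2-fold higher and 0 lower, too few for a median. Slc1a5, the neutral amino acid transporter ASCT2, had 1121 CPM in Ad Ia and 349 in Ad Ib, with 50.1 in Ad IIa, 49.7 in Ad IIb and 302 in Ad IIc (1.67, 1.18 to 2.21). Slc7a10, a small neutral amino acid transporter of white adipocytes, had 251 and 99.8 CPM (1.29, 0.35 to 2.41). The ubiquitous transporter gene Slc38a2 stood at −0.55 (−1.73 to 0.59).

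Of 17 adipocyte identity genes, 15 had enough UMIs over Ad Ia and Ad Ib; 2 were at least 2-fold higher in Ad Ia, 0 lower, and the median was 0.37. The median was 0.36 after the erythroid-scaled subtraction, and 1.03 over the 13 genes left by the immune-scaled one. The 13 include Adipoq, Cebpa and Pnpla2, whose ratios depend on the 0.5 UMI added because Ad Ib had none left. They leave out Fabp4 and Cfd, whose reported intervals lie below 0. Plin1, the coat protein of the lipid droplet, had 808 CPM in Ad Ia and 391 in Ad Ib, with 97.0 in Ad IIa, 42.6 in Ad IIb, 444 in Ad IIc and 164 in the other barcodes (1.04, 0.55 to 1.57). The Plin1 ratio was 2.56 among nuclei with at least 1000 UMIs, but below 2-fold in other settings. It was 0.96 with TMM factors, 0.77 in thinned counts and 0.73 without the 5 deepest nuclei of each label. Acsl1, above, was the other gene, and its ratio was 0.86 among nuclei with at least 1000 UMIs and 1.09 in thinned counts. With Malat1, Gm42418 and AY036118 left out of the totals, Plin1 was at 0.95 and Acsl1 at 0.99, both below 2-fold. Cidec, which fuses lipid droplets, had 2988 CPM in Ad Ia and 2054 in Ad Ib, beside 3133 in Ad IIc (0.54, 0.31 to 0.77), and Plin4 had 508 and 333 (0.60, 0.04 to 1.21).

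The abundant adipocyte products Adipoq, Fabp4 and Cfd, all of the identity list, had their highest level in Ad IIc. Ad IIc also had the lowest Malat1 (1738 CPM) and the highest ribosomal protein RNA (84441 CPM) of the 5 labels. In Ad Ia these stood at 42891 and 15161 CPM. The part of nuclear RNA content in the contrasts with Ad IIc was not tested. Adipoq, which encodes adiponectin, had 453 CPM (349 to 577) in Ad Ia, 299 (210 to 415) in Ad Ib, 449 in Ad IIa, 256 in Ad IIb and 2513 in Ad IIc, beside 749 in the other barcodes (Ad Ia over Ad Ib 0.59, −0.01 to 1.23, and 1.96 among nuclei with at least 1000 UMIs). The Adipoq ratio was 0.17 in thinned counts, 0.25 with nuclei weighted equally and 0.34 without the 5 deepest nuclei of each label. The immune-scaled subtraction left no Adipoq UMI in Ad Ib. Fabp4, the fatty acid carrier, had 4951 CPM in Ad Ia and 7634 in Ad Ib, beside 36252 in Ad IIc, and the other barcodes had 15392 (Ad Ia over Ad Ib −0.62, −0.77 to −0.48). Cfd, the secreted protease adipsin, had 1838, 2819, 15981 and 5336 CPM in the same order (−0.62, −0.85 to −0.38). The Cfd ratio was 0.24 among nuclei with at least 1000 UMIs, and the immune-scaled subtraction left neither Fabp4 nor Cfd in either label. Against the other barcodes, 5 of the 17 identity genes were at least 2-fold higher in Ad Ia and 2 lower, with a median of −0.12, where 15.9% of all 11474 genes were higher and 22.3% lower. Against Ad IIc, 2 were at least 2-fold higher and 10 lower, with a median of −1.25, where 33.6% of all genes were higher and 31.7% lower. Against Ad IIb, 9 of 14 were higher and 1 lower with a median of 1.27, where 19.3% of all genes were higher and 24.6% lower. Against Ad IIa, 6 of 17 were higher and 3 lower with a median of 0.02, where 15.5% of all genes were higher and 24.7% lower.

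Other identity genes with enough UMIs were less than 2-fold from Ad Ib. Pparg, the master regulator of adipogenesis, had 989 and 773 CPM (0.35, −0.03 to 0.75), 2012 in Ad IIa and 356 in Ad IIc. Lpl, lipoprotein lipase, had 2033 and 1572 CPM (0.37, 0.10 to 0.64), and 0.01 without the 5 deepest nuclei of each label. Cebpa (0.17, −1.03 to 1.46), Retn, which encodes resistin (−0.09, −0.56 to 0.39), and Car3, a carbonic anhydrase (0.05, −0.11 to 0.20), had intervals that include 0. Cebpa stood at −0.73 with nuclei weighted equally and at 1.93 among nuclei with at least 1000 UMIs. Retn stood at −0.72 in thinned counts and at 0.54 among nuclei with at least 1000 UMIs. Car3 was at 1.34 after the immune-scaled subtraction. Lep, which encodes leptin, had 8 and 6 UMIs, and Slc2a4, the insulin-regulated glucose transporter, 7 and 2, too few for a comparison.

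Transcription factors of adipogenesis had 10 of 13 members with enough UMIs, 1 at least 2-fold higher and 0 lower, and a median of 0.29. That gene was Ebf1, at 4151 CPM in Ad Ia and 2046 in Ad Ib, with 2250 in Ad IIa, 3219 in Ad IIb and 424 in Ad IIc (1.02, 0.80 to 1.24). Ebf1 stood close to the 2-fold limit, at 0.94 with TMM factors, 0.92 without the 5 deepest nuclei of each label and 1.23 in thinned counts. Rxra, the partner of Pparg, followed at 0.88 (−0.42 to 2.46). Ebf2, a relative of Ebf1, had 230 and 258 CPM (−0.17, −0.92 to 0.59) and Cebpb 69.6 and 99.8 (−0.51, −1.89 to 0.82).

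Secreted products had 12 of 16 members with enough UMIs, 2 at least 2-fold higher, 1 lower and a median of 0.26. This median was −0.19 with nuclei weighted equally and 0.86 among nuclei with at least 1000 UMIs. Vegfa, the angiogenic growth factor, had 341 CPM in Ad Ia and 99.8 in Ad Ib, with 5.66 in Ad IIa, 0 UMIs in Ad IIb and 23.3 in Ad IIc (1.73, 0.84 to 2.82). Apoc1, an apolipoprotein, rested on 9 and 17 UMIs (−1.14, −2.52 to 0.07). In the hypoxia and stress list 5 of 11 had enough UMIs, with a median of 0.44. Vegfa and Pfkfb3, a regulator of glycolysis (418 and 200 CPM, 1.05, 0.36 to 1.81), were its 2 genes at least 2-fold higher. Pfkfb3 was at 0.97 with TMM factors and at 1.42 in thinned counts. Hif1a, the oxygen-sensing factor itself, had 8 and 14 UMIs (−1.03, −2.52 to 0.29), and Nedd9 stood at 0.05 (−0.83 to 0.95).

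Matrix genes had 9 of 14 members with enough UMIs, 2 at least 2-fold higher, 0 lower and a median of −0.05. Lama4, a laminin chain of the adipocyte basement membrane, had 787 and 383 CPM (1.03, 0.53 to 1.57), and Col5a2 had 202 and 74.8 (1.38, 0.31 to 2.70), with 34.5% of its Ad Ia UMIs in 1 nucleus. Lama4 was at 0.95 with TMM factors, 0.85 in thinned counts and 2.07 among nuclei with at least 1000 UMIs. Col4a1, a type IV collagen chain, had 244 and 474 CPM (−0.95, −1.61 to −0.33), and Col6a3 stood at −0.63 (−1.81 to 0.49). Of the immediate early genes that tissue handling can raise, 2 of 13 had enough UMIs, Jun (−0.53, −1.99 to 0.86) and Jund (−0.62, −1.98 to 0.67), and the list summed to 279 CPM in Ad Ia and 374 in Ad Ib.

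**Figure D5:**
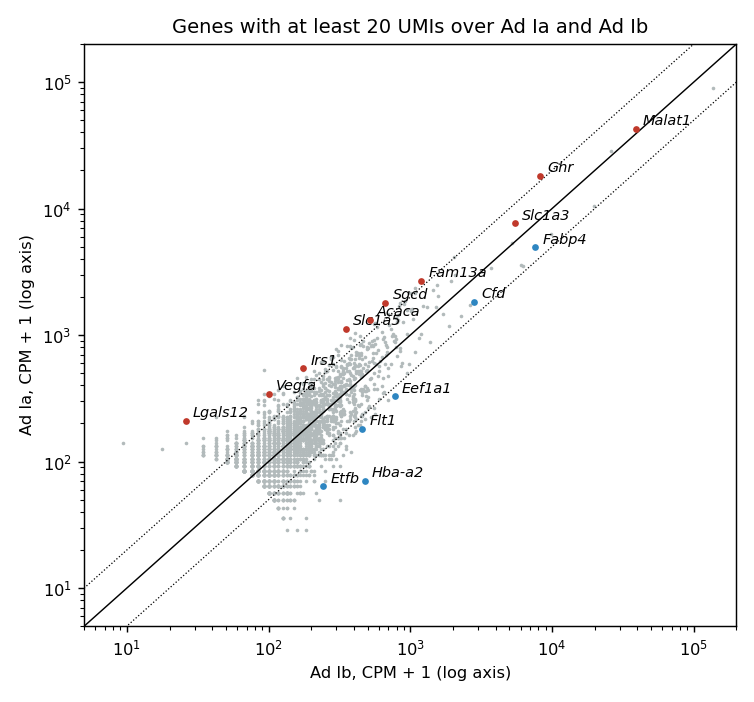
CPM + 1 of each gene with at least 20 UMIs over both labels in Ad Ib (x) and Ad Ia (y), both on log axes, with equality as a line and 2-fold steps dotted. Named genes higher in Ad Ia and the reference gene Malat1 are red, and genes lower in Ad Ia are blue.

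Genes were also ranked by the interval bound nearer to 0, largest first, and the 15 leading genes in Ad Ia included Ghr, Acaca, Irs1, Fam13a, Pnpla3, Acvr1c, Slc1a5, Sik2 and Vegfa. The other 6 were Lgals12, Sgcd, Cpeb3, Tln2, Atp2b4 and Slc22a23. Lgals12, which encodes galectin-12, a lipid droplet protein of adipocytes, had 30 and 3 UMIs, or 209 and 24.9 CPM, a log2 ratio of 2.87 (1.38 to 5.42). Its level in Ad IIc, 211 CPM, was as high. Sgcd, a sarcoglycan of the cell membrane, had 1790 CPM in Ad Ia and 665 in Ad Ib, with 41.2 in Ad IIa, 14.2 in Ad IIb and 167 in Ad IIc (1.42, 1.06 to 1.81). Cpeb3, which regulates translation of polyadenylated RNA, had 223 and 41.6 CPM (2.31, 1.05 to 4.14) and Tln2, a talin that links integrins to actin, 341 and 91.5 (1.85, 0.94 to 2.99). Atp2b4, a calcium pump, stood at 1.58 (0.89 to 2.37) and Slc22a23, an orphan transporter, at 1.83 (0.87 to 3.04).

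A further ranking asked which genes were highest in Ad Ia by their smallest log2 ratio over the other 4 labels. Ad Ib was the nearest label for most of the 15, so the values repeat the comparison above for Tln2, Slc22a23, Vegfa, Bmpr1a, Slc1a5, Irs1 and Trhde, while for Cpeb3 the smallest ratio was 1.75. The genes not yet named were Pfkfb1, which sets the level of a glycolytic signal (1.68, 0.60 to 3.07), Slc16a10, a carrier of aromatic amino acids and thyroid hormone (1.67, 0.78 to 2.76), Il27, a cytokine subunit, and Pcdh7, a protocadherin. Il27 had 43 and 11 UMIs (1.66, 0.73 to 2.82) and Pcdh7 49 and 13 (1.62, 0.75 to 2.67). Phka2, a subunit of the kinase that activates glycogen breakdown (1.56, 0.62 to 2.72), Focad, a focal adhesion protein (1.501, 0.51 to 2.73), and Myl1, a myosin light chain (1.43, 0.37 to 2.74), completed the 15. Slc16a10 was at 0.50 in the thinned counts, and 24.5% of the Pcdh7 UMIs and 23.3% of the Myl1 UMIs in Ad Ia came from 1 nucleus.

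Over the other 4 labels summed, 1661 of 9182 genes were at least 2-fold higher in Ad Ia (18.1%) and 2300 lower (25.0%). With TMM factors the numbers were 1048 and 2997. This sum is dominated by the UMIs of Ad IIa and Ad IIc, so the single labels were used above.

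The 15 genes that led in the lower direction are grouped here by what they encode, a grouping made after their values were seen. Flt1, a receptor for Vegfa and an endothelial marker, had 181 CPM in Ad Ia and 457 in Ad Ib, with 1634 in Ad IIa, 2387 in Ad IIb and 124 in Ad IIc (−1.32, −2.07 to −0.64). As with Flt1, Ad IIa or Ad IIb was the highest label for 4 others. These were St6galnac3, a sialyltransferase (−2.13, −3.65 to −0.97), Dach1, a transcription factor (−1.55, −2.51 to −0.71), Fbxl7, an F-box protein (−1.49, −2.49 to −0.61), and Kitl, the ligand of the Kit receptor (−1.27, −2.06 to −0.55).

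Another group encodes proteins that most cells make. Eef1a1, a translation elongation factor, had 327 CPM in Ad Ia and 773 in Ad Ib, with 1153 in Ad IIa, 924 in Ad IIb and 2590 in Ad IIc (−1.23, −1.78 to −0.72). Actb, cytoplasmic actin (−1.18, −1.75 to −0.65), Ppia, cyclophilin A (−1.46, −2.36 to −0.65), Oaz1, ornithine decarboxylase antizyme (−1.61, −2.69 to −0.68), Selenow, a selenoprotein (−1.90, −3.31 to −0.77), and Etfb, of the mitochondrial electron transfer flavoprotein (−1.89, −3.21 to −0.83), had similar ratios. The immune-scaled subtraction left no UMI of Eef1a1, Actb or Ppia in either label, so these 3 calls do not stand in that setting. Gene length differed in the same direction. Median genomic length was 82.1 kb for the genes at least 2-fold higher in Ad Ia, 22.6 kb for those lower and 74.3 kb for all genes, with a length for 99.6% of genes.

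Hemoglobin RNA made up the third group. Hba-a2 had 10 and 57 UMIs (−2.71, −3.90 to −1.79) and Hba-a1 7 and 38 (−2.62, −4.11 to −1.52); these near-identical copies cannot be assigned with certainty. Neither had a UMI left in either label after the immune-scaled subtraction. The erythroid-scaled one takes its share from hemoglobin RNA itself, so it cannot decide whether the difference remains. It left 3.03 and 30.4 UMIs of Hba-a2 (log2 −3.51). Lars2, the mitochondrial leucyl-tRNA synthetase (−0.74, −0.91 to −0.58), and Camk1d, a calcium-dependent kinase (−0.82, −0.99 to −0.66), completed the 15.

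Markers of other cell types were summed per label. The 10 endothelial markers summed to 773 CPM in Ad Ia and 2029 in Ad Ib, with 8896 in Ad IIa, 11041 in Ad IIb and 510 in Ad IIc, beside 2560 in the other barcodes. None of the 10 was at 0 in Ad Ia, 5 of the 6 with enough UMIs were at least 2-fold lower than in Ad Ib and 0 higher, and the median was −1.25. It was −0.75 without the 5 deepest nuclei of each label, −1.26 after the erythroid-scaled subtraction and −4.51 after the immune-scaled one, in which genes such as Flt1 had no UMI left in Ad Ia. The part of endothelial RNA in the ratios between Ad Ia and Ad Ib was not tested. Fibroblast and progenitor markers summed to 508 CPM in Ad Ia and 890 in Ad Ib, with 234 to 603 in the other 3 labels and 1532 in the other barcodes. Their median was −0.49 over 5 of 10 members (−0.36 after the erythroid-scaled subtraction, and too few members left by the immune-scaled one), and 2 of 10 were at 0 in Ad Ia. Mural markers summed to 146 CPM in Ad Ia and 374 in Ad Ib, with 114 to 148 in the other 3 labels and 205 in the other barcodes.

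Immune marker sums had intervals of the Ad Ia over Ad Ib ratio that include 0. Macrophage markers summed to 655 CPM in Ad Ia, 723 in Ad Ib and 120 to 327 in the other 3 labels, against 1514 in the other barcodes. B-cell markers summed to 425 and 441 CPM and 28.4 to 48.4 in the other 3 labels, against 366 in the other barcodes, and T-cell markers to 195 and 316 CPM (log2 −0.69, −1.46 to 0.05), 19.4 to 143 and 801. Most B-cell UMIs were of 1 gene, Bank1, with 44 of 61 in Ad Ia and 37 of 53 in Ad Ib. The part of free RNA in these values was not tested. Erythroid RNA stood lower in Ad Ia than in Ad Ib, at 223 against 1015 CPM. It was at 133 in Ad IIa, 99.5 in Ad IIb, 393 in Ad IIc and 9534 in the other barcodes. Schwann markers summed to 90.5 and 91.5 CPM, lymphatic endothelial markers to 41.8 and 58.2, and mesothelial markers to 20.9 and 8.32, from 3 UMIs and 1 UMI. All 6 epididymal epithelium markers were at 0 UMIs in all labels and in the other barcodes.

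Of 3 listed RNAs that stay in the nucleus, Malat1 and Neat1 had more CPM in Ad Ia than in every other label, and Meg3 had 2 UMIs there and 3 in Ad Ib. Malat1, a nuclear long noncoding RNA, had 42891 CPM in Ad Ia and 38827 in Ad Ib, with 10009 in Ad IIa, 11667 in Ad IIb, 1738 in Ad IIc and 12886 in the other barcodes. Neat1, the scaffold RNA of paraspeckles, had 1776, 848, 393, 362, 89.1 and 369 CPM in the same order. Meg3, a maternally expressed noncoding RNA, had 13.9 CPM in Ad Ia and 74.1 in the other barcodes. Ribosomal protein messenger RNA ran the other way, at 15161 CPM in Ad Ia and 26627 in Ad Ib, with 37875 in Ad IIa, 27049 in Ad IIb, 84441 in Ad IIc and 53468 in the other barcodes. The part of nuclear RNA content in the ratios between labels was not tested.

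Within Ad Ia the nuclei were also split by depth into 53 deeper ones (1060 to 5061 nuclear-encoded UMIs, 75.4% of the UMIs) and 53 shallower ones (469 to 1002). Ghr had 17258 CPM (16484 to 18058) in the deeper and 20790 (19314 to 22349) in the shallower nuclei, and Malat1 39495 and 53291. The identity list summed to 24722 and 25797 CPM. Macrophage markers were higher in the deeper nuclei, at 767 (611 to 951) against 311 (155 to 557) CPM, and B-cell markers at 527 (399 to 682) against 113 (30.8 to 290). Endothelial markers had 850 (685 to 1042) and 537 (324 to 839). The 2 depth ranges share 1 library, and the authors' doublet classes were kept.

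The 4-month thymic library held 35 nuclei labelled Ad Ia and 49 labelled Ad Ib, with 27659 and 24582 nuclear-encoded UMIs. Labels were shared between the libraries, so these ratios are no independent support. Of 99 named genes, 36 had 20 thymic UMIs. Ghr had 14932 and 4271 CPM there (log2 1.80, 1.49 to 2.13), Slc1a3 was at 1.25 (0.63 to 1.95), Tshr at 2.39 (1.003 to 4.51) and Slc1a5 at 2.18 (1.20 to 3.46). Fam13a, with 89 UMIs in each thymic label, was at −0.17 (−0.61 to 0.27), where the epigonadal ratio was 1.17. Over 347 thymic genes with enough UMIs, 16.7% were at least 2-fold higher, 9.8% lower, and the median was 0.11. No difference between the libraries was tested.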

How the data were processed

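Gene counts came from the deposited matrix of the epigonadal library. The authors made these raw UMI counts per gene and barcode with cellranger 7.2.0, per the file headers, and mm10, Cell Ranger ARC 2.0.2 and Seurat 5.1.0 are named in the submitters' processing notes. The sources used here do not give how introns were counted. A nucleus table deposited by the authors holds labels, cluster numbers, doublet classes, UMAP coordinates (a score without unit), mitochondrial UMIs in percent, and each nucleus's UMI count and number of detected genes. The matrix total equalled the deposited UMI count in 789 of 1564 labelled nuclei and exceeded it by at most 29 UMIs in the rest. The thymic matrix was used for the last comparison, and the multiome libraries were not used here.

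UMIs of 32285 genes were summed per label, and the 13 mitochondrially encoded genes were left out of totals and ratios. A ratio needed 20 UMIs over both sides, and a list median 5 such members. Intervals were exact (binomial for ratios, Poisson for sums, Clopper-Pearson for shares) at 95%. The ratio code was tested on simulated data. Python 3.11.15 with NumPy 2.4.6, SciPy 1.17.1 and pandas 2.3.3 was used, and R 4.3.3 with edgeR 4.0.16 for TMM factors.

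The members and the 29 gene lists were chosen with earlier results of these data known, and no test was made. Named genes were the 6 markers, all identity genes, and the 2 highest and 2 lowest of each pathway list. Added to these were in each direction the 15 whose interval's nearer bound lay farthest from 0 (30 UMIs over both labels and 50 CPM on the higher side) and the 15 with the largest smallest ratio over the other 4 labels (30 Ad Ia UMIs). Mitochondrial, ribosomal protein and predicted genes were not ranked. Ero1a was matched to Ero1l through RefSeq synonyms, and promoters were matched by symbol.

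Alternatives were TMM factors, totals without Malat1, Gm42418 and AY036118, nuclei weighted equally, the profile of the other barcodes subtracted after being scaled by immune markers, nuclei with at least 1000 UMIs, thinning to 500 UMIs, 5 UMIs added, minimums of 50 or 0 UMIs, and leaving out the 5 deepest nuclei of each label. Subtraction scaled by erythroid markers was added after seeing the data. A gene with no UMI left on either side of a subtraction was given no ratio.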

Additional observations from a re-analysis of the deposited data

Results flagged for a closer look

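Among the 3479 epigonadal barcodes without a label, 120 (3.45%) had UMIs of 4 or more of the 6 Ad Ia markers, and 12 of these had all 6. The comparisons between labels do not count these barcodes as members of a label. With 251002 nuclear-encoded UMIs, these barcodes are part of the profile of the other barcodes that was subtracted in some settings. Their median was 1328.5 UMIs (539 to 19871), their median mitochondrial share 6.27%, and 10 of them lay above the highest share of any labelled nucleus (14.9%). Another 12 had more UMIs than the deepest Ad Ia nucleus (5209), and the 2 counts may overlap. Summed, they had 7068 CPM of Ghr, 4442 of Slc1a3, 478 of Adipoq and 25565 of Malat1, with 3801 CPM of endothelial, 857 of macrophage and 2127 of erythroid markers. Because the 120 were picked by UMIs of the markers, their Ghr and Slc1a3 levels follow in part from that choice. After thinning to 500 UMIs, 47 unlabelled barcodes (1.35%) still had 4 or more markers. Why they carry no label was not tested.

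For 2 named genes the ratio of Ad Ia over Ad Ib had opposite signs in the thymic and the epigonadal library, with intervals that exclude 0 in both. Cfd, which encodes adipsin, was at 2.45 (1.495 to 3.72) in the thymic library, from 58 and 9 UMIs, and at −0.62 in the epigonadal one. The epigonadal Cfd ratio had the opposite sign, 0.24, among nuclei with at least 1000 UMIs, and the immune-scaled subtraction left no Cfd UMI in either epigonadal label. Ppara was at −0.92 (−1.60 to −0.29) in the thymic library, from 33 and 56 UMIs, and at 0.97 in the epigonadal one. The difference itself was not tested, since each group was 1 library.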

How the results depend on the processing

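No paired analysis was possible because each group was 1 library without replicate numbers. For Ad Ia over Ad Ib, the numbers of genes at least 2-fold higher and lower (204 and 161) were 511 and 459 with the immune-scaled subtraction, 104 and 75 in thinned counts, 86 and 88 with 5 UMIs added, 81 and 34 at a minimum of 50 UMIs, and 3599 and 3507 with no minimum. Over the other 4 labels, the higher genes (1661) numbered 1048 with TMM factors, 4177 with 5 UMIs added, 899 at 50 UMIs and 8551 with no minimum, and the lower (2300) 521 with 5 UMIs added. Thinned counts and the higher minimum left fewer genes to test (1001 and 809). Adding 5 UMIs to sums of unequal depth raises the ratio of the smaller sum by construction. The immune-scaled counts include genes emptied on 1 side (175 in Ad Ia, 86 in Ad Ib, of 2555). For the other settings the cause was not tested.

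Immune-scaled subtraction gave list medians of 1.03 for identity, 1.03 for fatty acid uptake and −4.51 for endothelial genes. The identity and endothelial medians include genes emptied on 1 side. Nuclei with at least 1000 UMIs gave 1.65 for the markers and 1.21 for de novo lipogenesis, and no minimum gave 0.034 for fatty acid uptake. The other 187 of 208 list and count values stayed within 1.5 times the reported count, or within the list's median interval bounds. These bounds are wide: 3 of 17 list medians crossed 0 in some setting, namely secreted products (−0.19 with equal weight), matrix genes (up to 0.24) and de novo lipogenesis (down to −0.28). A median with under 5 members was not computed. Of 99 named genes, 22 were on the other side of 0 in at least 1 setting, and for 20 of these the reported interval includes 0. The other 2 reversed among nuclei with at least 1000 UMIs (Cfd 0.24, Gpat3 −0.015). Of 884 gene values, 67 lay outside the reported interval without a reversal. A move of over 1.5-fold was seen for 36 named genes among nuclei with at least 1000 UMIs, 30 with the immune-scaled and 2 with the erythroid-scaled subtraction, 21 in thinned counts, and 0 to 4 in each other setting. Leaving 3 RNAs out of the totals turned the balance of genes for Ad Ia over Ad Ib to 149 higher and 211 lower, and TMM factors to 171 and 208. A gene with fewer than 20 UMIs over both labels could not be compared at this depth.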
